A study of Populus tremula x Populus alba with 12 samples.

Results

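Flavonoid and condensed tannin genes of a poplar leaf were followed as 6 transcripts, 4 enzymes and 2 MYB activators. They were taken by published locus ID (F3H, F3'H, F3'5'H, LDOX, MYB134 and MYB115) from 16866 transcript rows of 16607 loci, and each locus had 1 row. RNA of mature, fully expanded leaves was counted in 12 libraries of 4 genotypes with 3 libraries each. The groups were plants with a CRISPR-edited glycosyltransferase labelled knockout, plants labelled only by an intermediate phenotype, empty-vector plants and wild-type plants. All were clonal plants of the *Populus tremula* × *P. alba* hybrid INRA 717, raised from in vitro culture and sampled at mid-stem after 3 months in a greenhouse under the same conditions. The labels name neither the edited glycosyltransferase nor the vector, and whether each library of a genotype stands for its own edited line is not said. The p-values therefore measure the spread between these libraries, and no targeted transcript was read as a check of the genotype labels.

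Condensed tannins, or proanthocyanidins, are flavonoid polymers stored in the vacuole, and poplar leaves are known for making them after wounding and under strong light. F3H, flavanone 3-hydroxylase, makes the dihydroflavonols from which all later steps draw. The hydroxylases F3'H and F3'5'H add hydroxyl groups to the B ring and so set whether procyanidin-type or prodelphinidin-type units are made, and LDOX, leucoanthocyanidin dioxygenase or anthocyanidin synthase, makes anthocyanidins at a late step. MYB134 and MYB115 are poplar MYB transcription factors that switch on tannin genes together with bHLH and WD-repeat partner proteins.

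Libraries held 5.38 to 17.3 M counts, and levels are given as CPM, the counts per M counts of a library after scaling for its composition. The leading principal component of log2 CPM over 14279 tested rows held 53.4% of the variance and put the knockout libraries at -97.9 to -70.5, away from the other 9 at -1.83 to 42.7. The next held 16.9%, with empty-vector libraries 1 and 3 at 50.1 and 47.6 and the other 10 libraries between -46.0 and 15.5. These 2 empty-vector libraries stood apart from the other 10, so comparisons that include them are also given without them. Their depths of 9.77 and 8.27 M counts lay inside the range of the rest. Within their genotype they were alike, with a chi-square per degree of freedom of 9.03 between their counts. Against empty-vector library 2, the deepest at 17.3 M counts, it was 75.5 for library 1 and 65.7 for library 3. Leaving them out thus keeps the library least like the others of its genotype, and is not taken as the cleaner fit.

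The widest differences among the 6 genes lay inside the empty-vector genotype. In empty-vector libraries 1 and 3, F3H, F3'H, LDOX, MYB134 and MYB115 had their highest and next highest levels of all 12 libraries. The share of all tested rows with this order was not counted. Empty-vector libraries 1 and 3 also stood apart over the tested rows as a whole, so the order is not read as particular to these genes. F3'5'H did not share this order: it ranked 9 of 12 in empty-vector library 1 and 4 of 12 in empty-vector library 3. Between knockout and the controls, F3'5'H was the gene whose fall held with and without these libraries.

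**Figure D1:**
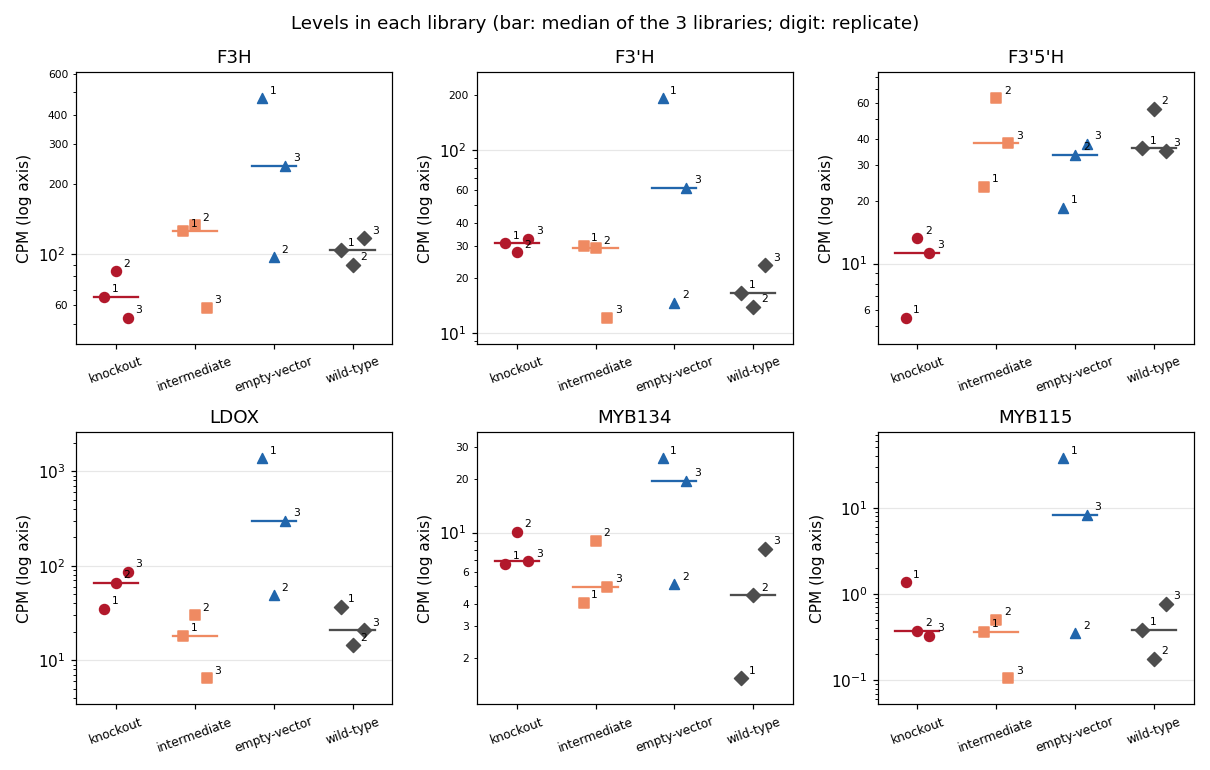
Level of each gene in every library, in CPM on a log axis, for knockout, intermediate, empty-vector and wild-type leaves, with a bar at the median of 3 libraries and the replicate number beside each point. Empty-vector libraries 1 and 3 are the highest points in 5 panels, whereas in the F3'5'H panel the knockout libraries, at 5.47 to 13.2 CPM, lie below all others.

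Among the activators, MYB134 (Potri.006G221800.2) read 6.67, 10.1 and 6.91 CPM in knockout, 4.04, 9.01 and 4.98 CPM in intermediate, 26.0, 5.13 and 19.5 CPM in empty-vector, and 1.54, 4.46 and 8.12 CPM in wild-type. Empty-vector libraries 1 and 3 lay above all others, and the remaining values of the 4 genotypes overlapped. Genotype means (SD, n = 3 each) were 7.88 ± 1.90 CPM for knockout, 6.01 ± 2.64 CPM for intermediate, 16.9 ± 10.7 CPM for empty-vector and 4.70 ± 3.30 CPM for wild-type. The lowest value, in wild-type library 1, rested on 8 counts.

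MYB115 (Potri.002G173900.1) was close to the limit of detection in 10 libraries. The knockout libraries had 8, 2 and 3 counts, the intermediate libraries 2, 3 and 1, the empty-vector libraries 400, 6 and 78, and the wild-type libraries 2, 1 and 5. In CPM, empty-vector library 1 read 37.2 (95% exact Poisson interval 33.7 to 41.1) and empty-vector library 3 read 8.33 (interval 6.58 to 10.4), while empty-vector library 2 read 0.350 (interval 0.128 to 0.761). These intervals cover counting error only. The other 10 libraries lay between 0.106 and 1.37 CPM, around the 0.175 to 0.576 CPM that 3 counts are worth in them. Only 2 libraries thus carried most of the reads, and MYB115 did not pass the filter on low counts, so that 5 of the 6 genes were tested.

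LDOX (Potri.001G113100.1) had the widest spread of the enzymes. It read 35.2, 66.0 and 85.8 CPM in knockout, 18.2, 30.0 and 6.47 CPM in intermediate, 1368, 48.6 and 301 CPM in empty-vector, and 36.7, 14.4 and 20.7 CPM in wild-type. Empty-vector library 1 was 15.9-fold and library 3 was 3.51-fold above the highest of the other 10 libraries. Within empty-vector, library 1 was 28.2-fold above library 2, a ratio reached by 0.0350% of the 14279 tested rows. Ordered by mean (SD, n = 3 each), the genotypes were empty-vector at 572 ± 700 CPM, knockout at 62.3 ± 25.5 CPM, wild-type at 23.9 ± 11.5 CPM and intermediate at 18.2 ± 11.8 CPM, and the libraries of neighbours in this order overlapped.

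F3'H (Potri.013G073300.1), the hydroxylase of the procyanidin-type branch, showed the same high libraries. Its levels were 30.8, 27.6 and 32.7 CPM in knockout, 29.9, 29.0 and 12.1 CPM in intermediate, 191, 14.6 and 62.1 CPM in empty-vector, and 16.5, 13.9 and 23.4 CPM in wild-type. Knockout was the most even genotype for this gene, at 30.4 ± 2.58 CPM, against 18.0 ± 4.93 CPM for wild-type leaves (SD, n = 3 each). Against wild-type alone, the log2 fold change of knockout was 0.76 and did not pass (edgeR adjusted p = 0.43).

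F3H (Potri.005G113900.1), which feeds all later steps, read 65.2, 84.1 and 53.0 CPM in knockout, 125, 133 and 58.6 CPM in intermediate, 471, 96.9 and 240 CPM in empty-vector, and 104, 89.8 and 117 CPM in wild-type. Empty-vector library 1 was 4.86-fold and library 3 was 2.48-fold above empty-vector library 2. Ratios as large were seen in 1.15% and 3.80% of the tested rows. The knockout mean of 67.4 ± 15.7 CPM was the lowest of the 4 genotypes, beside 106 ± 40.9 CPM for intermediate leaves (SD, n = 3 each). Empty-vector library 2 lay inside the wild-type range for F3H, F3'H, MYB134 and MYB115.

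F3'5'H (Potri.009G069100.1), the hydroxylase of the prodelphinidin-type branch, followed another order. It read 5.47, 13.2 and 11.3 CPM in knockout, 23.5, 62.9 and 38.2 CPM in intermediate, 18.6, 33.6 and 37.9 CPM in empty-vector, and 36.1, 56.0 and 35.1 CPM in wild-type. Knockout lay below all other libraries, and the other 3 genotypes overlapped. Of all tested rows, 12.6% had knockout below every control library and 16.1% had it below every intermediate library. The share with both was not counted. In empty-vector library 1, where the other 5 genes peaked, F3'5'H had its lowest level outside knockout. Its means (SD, n = 3 each) were 10.0 ± 4.04 CPM for knockout, 41.5 ± 19.9 CPM for intermediate, 30.0 ± 10.1 CPM for empty-vector and 42.4 ± 11.8 CPM for wild-type.

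The balance of the hydroxylases was described as the CPM ratio of F3'5'H to F3'H within each library, chosen after the values were seen and given with no test. Knockout libraries had ratios of 0.178, 0.480 and 0.346, intermediate libraries 0.785, 2.17 and 3.16, empty-vector libraries 0.0973, 2.29 and 0.610, and wild-type libraries 2.19, 4.03 and 1.5. Its size depends on the transcript lengths, so only its differences between libraries are read. It was lowest in empty-vector library 1 and next lowest in the 3 knockout libraries. In empty-vector library 1 F3'H was at its highest, 191 CPM, and F3'5'H at its lowest outside knockout, 18.6 CPM. In knockout F3'5'H was low, and F3'H, at 27.6 to 32.7 CPM, lay above wild-type at 13.9 to 23.4 CPM. The share of all tested rows with knockout above wild-type was not counted. Against wild-type alone F3'H did not pass (log2 fold change 0.76, edgeR adjusted p = 0.43).

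Knockout was compared with the controls to see which of these genes differed in the edited plants. F3'5'H fell 3.55-fold (95% interval 2.01 to 6.28) and F3H fell 2.48-fold (95% interval 1.32 to 4.65), and no tested gene rose. The controls were the average of the empty-vector and wild-type means. In leaf tissue as a whole, fewer cells that carry a transcript and less of it per cell cannot be told apart. Knockout lay below all 6 controls for both genes, a separation found in 12.6% of the tested rows.

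On the log2 scale the difference of F3'5'H was -1.83 ± 0.38 (SE), with an adjusted p of 0.0031 (edgeR quasi-likelihood test, Benjamini-Hochberg over all tested rows). It passed in all 24 alternatives run, with log2 fold changes between -2.08 and -1.54. Without empty-vector libraries 1 and 3 it was 3.85-fold (95% interval 2.14 to 6.92; edgeR adjusted p = 0.0045). The fall of F3H (log2 fold change -1.31 ± 0.42, SE; edgeR adjusted p = 0.032) passed in 17 of 24. It did not pass without knockout library 1, 2 or 3 or wild-type library 3 (edgeR adjusted p = 0.10, 0.057, 0.085 and 0.050). Without empty-vector libraries 1 and 3 it was 1.53-fold (95% interval 1.00 to 2.33; edgeR adjusted p = 0.13).

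F3'H, LDOX and MYB134 did not pass, with edgeR adjusted p of 0.64, 0.41 and 0.81. Their log2 fold changes were -0.40, -0.90 and -0.19 with all 12 libraries. Without empty-vector libraries 1 and 3 these values were 0.87, 0.85 and 0.63, so the direction of all 3 turned with the libraries used (edgeR adjusted p = 0.059, 0.23 and 0.32). Against empty-vector alone, LDOX was lower in knockout with a log2 fold change of -3.19 (edgeR adjusted p = 0.024), and against wild-type alone the value was 1.39 (edgeR adjusted p = 0.27). Of the 5 tested genes 2 passed, both lower, where 30.1% of all tested rows passed and 13% were called lower. Without empty-vector libraries 1 and 3, 1 of 5 passed, where 27.3% of rows did. The median log2 fold change was -0.90 over the 5 genes and -0.017 over all tested rows with all libraries, against 0.63 and -0.015 without those 2, so the median of the 5 turned as well.

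**Figure D2:**
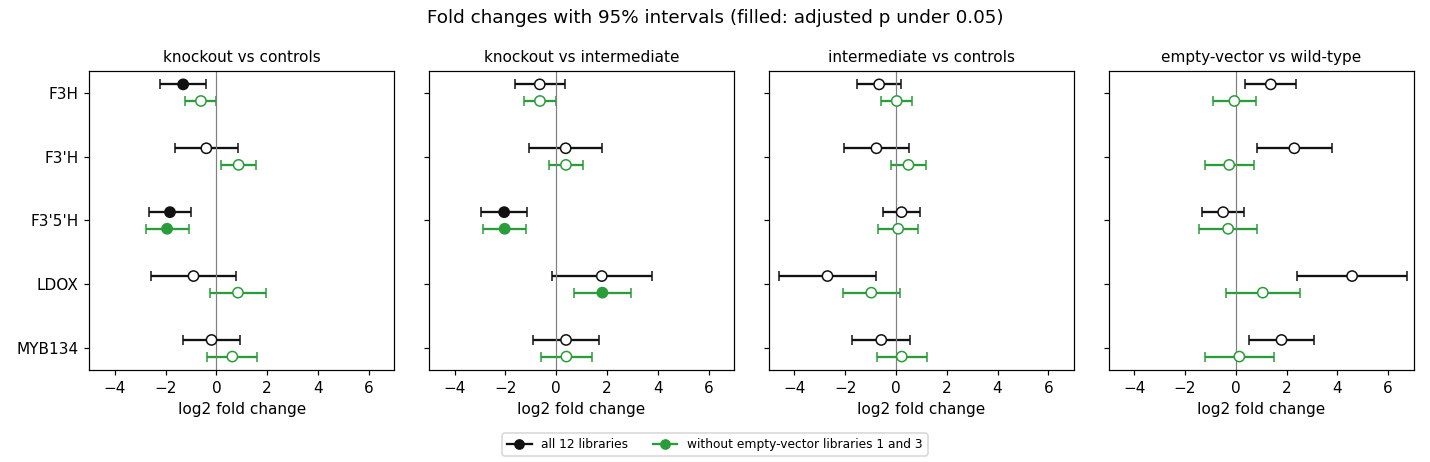
Log2 fold changes of the 5 tested genes with 95% intervals in 4 comparisons, with all 12 libraries (black) and without empty-vector libraries 1 and 3 (green); filled points have an edgeR adjusted p under 0.05. F3'5'H is the gene whose filled points stand with both sets of libraries, in knockout against controls and against intermediate, while the points of the other genes shift between the sets wherever empty-vector enters.

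Knockout against intermediate uses no control library in its contrast. F3'5'H fell 4.14-fold in knockout (95% interval 2.22 to 7.72; edgeR adjusted p = 0.0051) and passed in all 22 alternatives. LDOX was 3.47-fold higher by its estimate (95% interval 0.884 to 13.6; edgeR adjusted p = 0.20), and its knockout libraries lay above its intermediate libraries, as in 18.9% of tested rows. With empty-vector libraries 1 and 3 left out of the fit, LDOX was 3.53-fold higher in knockout (95% interval 1.61 to 7.75) and passed (edgeR adjusted p = 0.034). Its fold was nearly the same in both fits and its SE was 0.91 with all libraries and 0.51 without those 2. Those libraries held the highest LDOX levels and do not enter this contrast. Leaving them out lowered the spread and so favoured the call in advance. F3H, F3'H and MYB134 had log2 fold changes of -0.65, 0.37 and 0.39 (edgeR adjusted p = 0.37, 0.75 and 0.71). Of the 5 genes 1 was called, and it was lower, where 17.4% of all tested rows were called and 7.41% were lower. Its knockout libraries lay below all intermediate libraries, as in 16.1% of tested rows. Without empty-vector libraries 1 and 3, 2 of 5 were called, where 17.7% of rows were.

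Intermediate against the controls gave no call among the 5 genes, where edgeR called 0.007% of all tested rows. At an unadjusted p under 0.05 there was 1 of the 5, LDOX, where 6.39% of all tested rows had one, and DESeq2 and limma-voom called 0. The estimate for LDOX was -2.70 ± 0.87 on the log2 scale (SE; edgeR adjusted p = 0.53), or -0.97 without empty-vector libraries 1 and 3 (edgeR adjusted p = 0.87). F3'5'H, the gene lowered in knockout, had a log2 fold change of 0.22 in intermediate (95% interval -0.50 to 0.94; edgeR adjusted p = 0.99).

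Empty-vector against wild-type compared the control genotypes. By edgeR 0 of the 5 genes passed, where 0.042% of all tested rows did, and 4 had an unadjusted p under 0.05, where 16.9% of all tested rows did. These 4, F3H, F3'H, LDOX and MYB134, had log2 fold changes of 1.38, 2.31, 4.58 and 1.80, with edgeR adjusted p of 0.21, 0.19, 0.16 and 0.21. LDOX in empty-vector lay above wild-type in every library, as 10.7% of tested rows did, at an estimated 24.0-fold (95% interval 5.36 to 107). F3'5'H had a log2 fold change of -0.50 (edgeR adjusted p = 0.53). Limma-voom called 0 of the 5, and DESeq2 called F3'H and LDOX (adjusted p = 0.024 and 0.0016). DESeq2 called 239 of the 10319 rows to which it gave an adjusted p.

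These 4 differences rested on empty-vector libraries 1 and 3. Without both, the log2 fold changes of F3H, F3'H, LDOX and MYB134 were -0.054, -0.26, 1.06 and 0.14 (edgeR adjusted p of at least 0.998 each). That fit leaves 1 empty-vector library, which is assumed to vary like those of the other genotypes. Without empty-vector library 2 instead, with MYB115 then among the tested rows, edgeR called 5 of the 6 genes, all higher in empty-vector, with adjusted p from 0.010 to 0.018. In that fit edgeR called 1302 of 14653 tested transcripts, against 6 of 14279 with every library. It keeps only the 2 empty-vector libraries where the 5 genes were highest, and MYB115 passed the filter through them. Leaving out the low library favoured these calls in advance, so they are no evidence of a genotype difference.

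MYB115 passed the filter on low counts in some fits with 1 library left out. With all 12 libraries it could be tested only without that filter. Its log2 fold change was then 5.00 ± 1.31 (SE) in empty-vector against wild-type (edgeR adjusted p = 0.20) and -1.999 ± 1.43 (SE) in knockout against controls (edgeR adjusted p = 0.34). Both directions turned without empty-vector libraries 1 and 3, which have 400 and 78 counts, to -0.38 and 0.71 (edgeR adjusted p = 0.9999 and 0.52). The other 10 libraries have 1 to 8 counts, so these fitted values are imprecise. In the test of any difference among the 4 genotypes, MYB115 passed without the filter (edgeR adjusted p = 0.0074, where 20.2% of rows passed), but not when empty-vector libraries 1 and 3 were also left out (edgeR adjusted p = 0.74).

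In the same test of any difference, with the filter, F3H, F3'5'H and LDOX passed (edgeR adjusted p = 0.024, 0.012 and 0.0031), whereas F3'H and MYB134 did not (edgeR adjusted p = 0.054 and 0.099). Of all tested rows 22.3% passed. Without empty-vector libraries 1 and 3 the adjusted p of F3'5'H was 0.014, and those of F3H, F3'H, LDOX and MYB134 were 0.30, 0.24, 0.078 and 0.67 by edgeR, where 17.2% of rows passed. F3'5'H was thus the only one of the 5 to pass in both fits, and its edgeR adjusted p was 0.057 without knockout library 1. F3H did not pass when knockout 1, empty-vector 1 or empty-vector 3 was left out (edgeR adjusted p = 0.068, 0.13 and 0.053).

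The enzymes were then set against their MYB activators across libraries, as log2 CPM. Pearson's r was computed for 15 pairs of the 6 genes with a two-sided permutation test of 100000 resamples, adjusted over the 15 pairs by the Benjamini-Hochberg method. Over all 12 libraries, the 10 pairs without F3'5'H passed, with r from 0.63 to 0.93, and the 5 pairs with it did not. By Spearman's rho, some of the 10 had an unadjusted permutation p over 0.05. These were F3H with F3'H (rho = 0.41, permutation p = 0.18), LDOX (rho = 0.28, permutation p = 0.38) and MYB134 (rho = 0.38, permutation p = 0.22), and MYB115 with LDOX (rho = 0.55, permutation p = 0.066). Empty-vector libraries 1 and 3 lay far from the rest in MYB115 and F3H, so the strength of a relation was read in the other 10 libraries. There, 0 of the 15 pairs passed the permutation test of Pearson's r, adjusted or unadjusted. The smallest unadjusted permutation p was 0.054, for the sparse MYB115 with F3'H (r = 0.62), and the 15 include the other pairs with MYB115. By rho, F3'H with F3'5'H had an unadjusted permutation p of 0.044 (rho = -0.66), beside 0.073 for its r of -0.59.

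In these 10 libraries, MYB134 had r = 0.49 with F3'H (rho = 0.36, permutation p = 0.14 and 0.31; adjusted p of r = 0.30), 0.22 with LDOX (rho = 0.41, permutation p = 0.54 and 0.25; adjusted p of r = 0.74), -0.11 with F3H (rho = -0.067, permutation p = 0.78 and 0.86; adjusted p of r = 0.84) and -0.25 with F3'5'H (rho = -0.19, permutation p = 0.48 and 0.61; adjusted p of r = 0.71). Leaving out the 2 libraries farthest from the MYB134 median, wild-type 1 and knockout 2, r was 0.50, 0.41, 0.093 and -0.074 for the same enzymes. MYB115, at 1 to 8 counts in these libraries, was too sparse for its coefficients to be read.

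Deviations from the genotype means, which take out differences between genotypes, were also correlated, with an exact permutation within genotypes. Over all 12 libraries the 10 pairs without F3'5'H had r between 0.53 and 0.94. Of the 15 pairs 5 had an unadjusted exact p under 0.05 and 0 an adjusted one (smallest adjusted exact p = 0.11). In the 9 libraries of knockout, intermediate and wild-type, 0 passed either way. The r of deviations there was 0.80 for F3H with F3'H, 0.68 for F3'H with LDOX and 0.64 for F3H with LDOX (exact permutation p = 0.12, 0.18 and 0.23). For MYB134 it was 0.29 with F3H, 0.27 with F3'H and -0.062 with LDOX (exact permutation p = 0.44, 0.50 and 0.88).

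**Figure D3:**
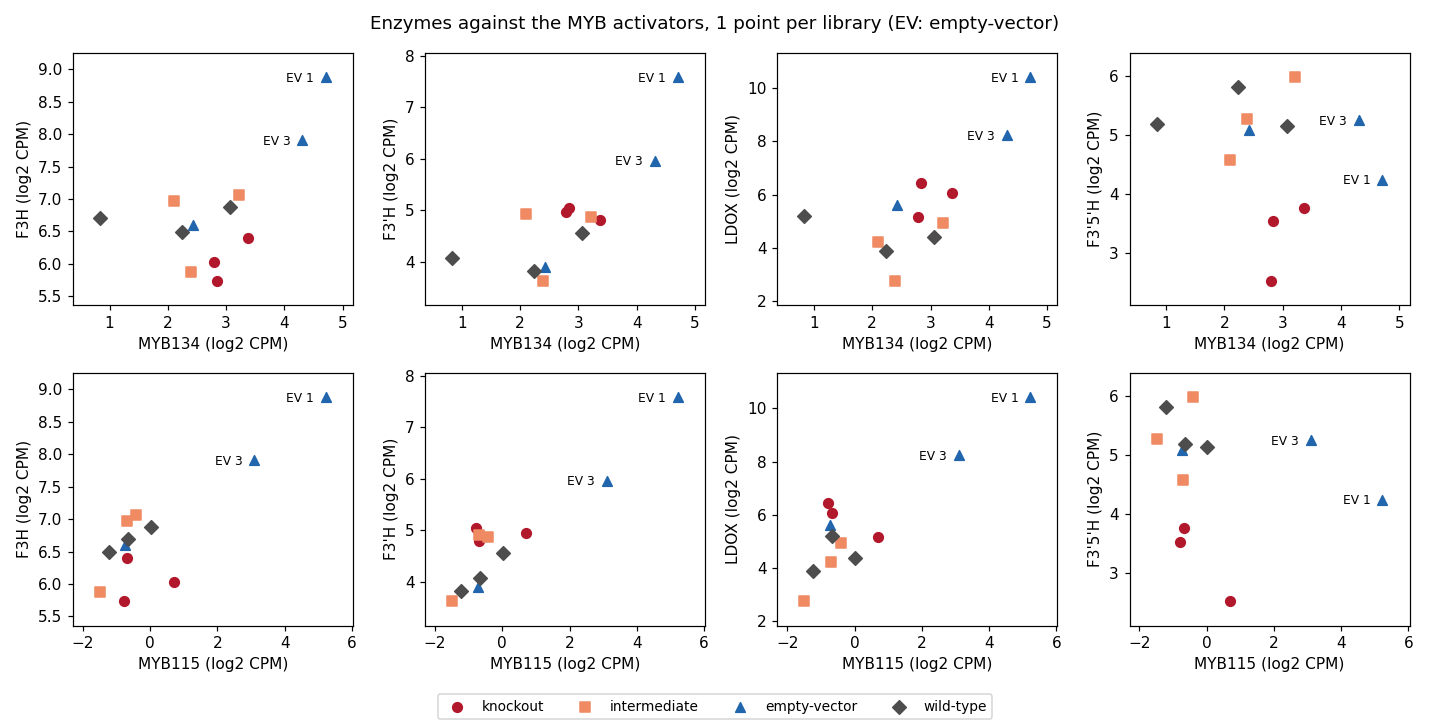
Log2 CPM of each enzyme (vertical) against MYB134 (top row) and MYB115 (bottom row), with 1 point per library coloured by genotype and empty-vector (EV) libraries 1 and 3 marked. Those 2 libraries sit at the upper right for F3H, F3'H and LDOX, the other 10 form a loose cloud, and F3'5'H shows no such corner.

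The transcripts with the most similar pattern over the 12 libraries were taken from 10003 rows with a mean of at least 5 CPM, by Pearson's r of log2 CPM and as a description. For F3H they were Potri.005G113700.1 (r = 0.989), Potri.002G095900.1 (0.961) and Potri.001G051600.1 (0.940). The locus number of Potri.005G113700.1 is close to that of F3H. It read 46.4, 58.6 and 41.5 CPM in knockout, 95.2, 85.8 and 47.6 CPM in intermediate, 496, 63.4 and 219 CPM in empty-vector, and 77.2, 62.2 and 97.8 CPM in wild-type. If the 2 transcripts are near copies, the counting could split reads between them, which was not tested.

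For F3'H the nearest were Potri.014G019200.1 (r = 0.941), Potri.004G167500.1 (0.921) and Potri.013G031900.1 (0.916), and for LDOX they were Potri.003G176800.1 (0.936), Potri.004G167500.1 (0.928) and Potri.001G051500.1 (0.928). LDOX ranked 7 of 10003 in likeness to F3'H, and F3'H ranked 9 in likeness to LDOX. For MYB115 the nearest were Potri.001G157600.1 (0.939), Potri.014G019200.1 (0.931) and Potri.010G221700.2 (0.928), and F3'H ranked 4 and LDOX 17. For MYB134 they were Potri.T124000.1 (0.954), Potri.008G116400.1 (0.942) and Potri.002G059800.1 (0.933), while its highest ranking enzyme, F3'H, came at 239. All these points share empty-vector libraries 1 and 3.

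F3'5'H had other neighbours, Potri.016G079600.1 (r = 0.946), Potri.011G042600.1 (0.944) and Potri.019G049200.1 (0.936). The nearest of them read 229, 299 and 271 CPM in knockout, 494, 641 and 569 CPM in intermediate, 475, 515 and 530 CPM in empty-vector, and 574, 624 and 666 CPM in wild-type. Like F3'5'H, it was lower in every knockout library than in any other. The other enzymes and MYB134 ranked between 3626 and 6583 in likeness to F3'5'H.

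A list of 20 further loci, recalled from published flavonoid pathway assignments and not checked against an annotation, had 8 rows in the tables, 7 of them tested. They are given by ID, with no name or role. By edgeR 0 of the 7 passed in any of the 4 comparisons. In empty-vector against wild-type 6 of the 7 had an unadjusted p under 0.05, where 16.9% of all tested rows had one. There was 1 in knockout against controls (40.7% of all tested rows), 0 in knockout against intermediate (31.1%) and 2 in intermediate against controls (6.39%). With empty-vector libraries 1 and 3 left out, these counts were 0 in empty-vector against wild-type (3.47% of all rows then tested), 3 in knockout against controls (39.7%), 1 in knockout against intermediate (31.4%) and 0 in intermediate against controls, and edgeR again called 0 of the 7 in each. The median log2 fold change of the 7 in empty-vector against wild-type was 3.13 with all libraries, beside 0.052 over all tested rows, and 0.071 without those 2.

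The most abundant of them, Potri.001G051600.1, read 14.03, 29.3 and 9.98 CPM in knockout, 11.9, 45.2 and 8.38 CPM in intermediate, 610, 23.5 and 184 CPM in empty-vector, and 25.4, 16.0 and 27.6 CPM in wild-type. Potri.001G051500.1 read 241, 11.0 and 76.8 CPM in empty-vector and between 3.92 and 35.2 CPM in the other 9 libraries. Both were high in empty-vector libraries 1 and 3, as LDOX and F3'H were. Between empty-vector libraries 1 and 2, 5 of the 7 tested rows differed 21.9-fold to 31.5-fold. The other 2 did not follow them. Potri.008G128500.1 read 10.98, 3.73 and 6.73 CPM in empty-vector, a ratio of 2.94 between libraries 1 and 2, and Potri.011G031900.4 read 1.12, 2.04 and 3.52 CPM, a ratio of 0.548. The 5 carry neighbouring locus numbers in 2 runs, Potri.001G051500.1 with Potri.001G051600.1 and Potri.003G176700.1 to Potri.003G176900.1, so reads may be shared within a run.

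**Figure D4:**
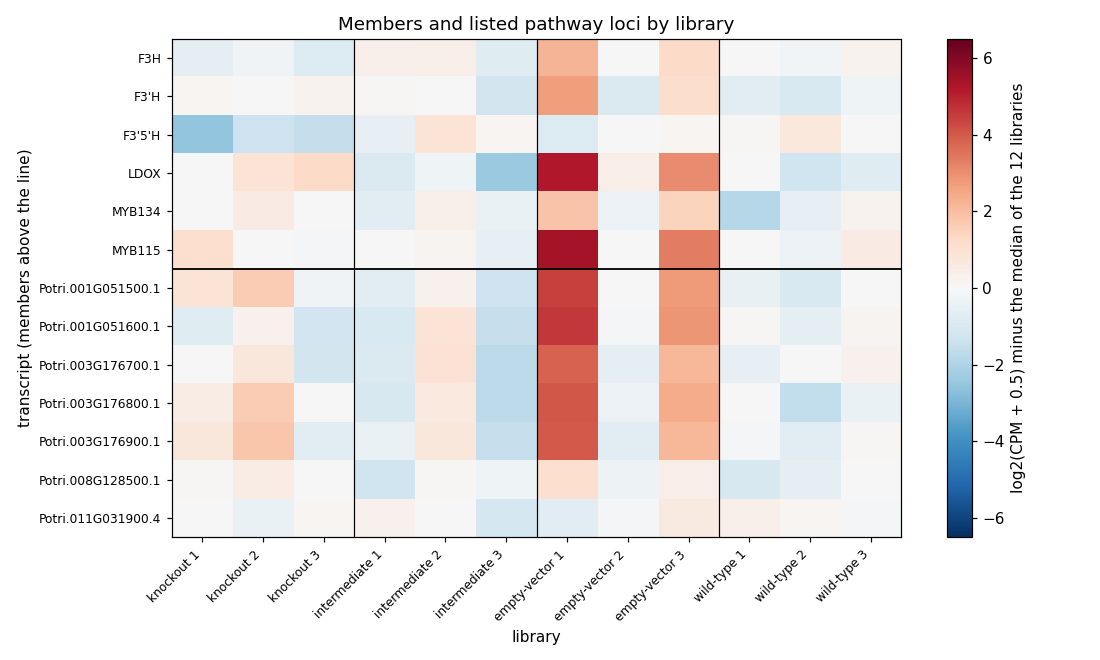
Log2(CPM + 0.5) minus its median over the 12 libraries (colour) for the 6 genes, above the line, and the 7 tested rows of the pathway list, below it, with libraries in columns by genotype. The columns of empty-vector libraries 1 and 3 are red for 5 of the 6 genes and for 5 of the 7 listed rows, paler or mixed for Potri.008G128500.1 and Potri.011G031900.4, and the F3'5'H row is blue in the 3 knockout columns.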

How the data were processed

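The deposited values were read counts per transcript ID, 1 table per library, made by the authors; all were whole numbers with a different sum in each library. HTSeq, HISAT2, Cufflinks, SAMtools and DESeq2 stand in the submitters' processing notes with no version or role. The build, the annotation and the strand setting of the counting were not given in the sources used here. Extraction used phenol and chloroform and was followed by enrichment of mRNA, per the labels' protocols. Close copies of a gene can share reads under such counting.

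The fits used edgeR 4.0.16 under R 4.3.3. The filter filterByExpr, at a proportion of 0.7, a minimum count of 10 and a minimum total of 15, kept 14279 rows that hold 99.8% of counts, and TMM set the scaling. All 12 libraries were fitted together as 4 genotype means without covariates (8 residual degrees of freedom). Quasi-likelihood tests were two-sided, with Benjamini-Hochberg adjustment over all tested rows and a threshold of 0.05. Each SE is the absolute log2 fold change divided by the root of F. The common biological coefficient of variation was 24.6%. Correlations are on log2 CPM (prior count 2). Limma 3.58.1 and DESeq2 1.42.0 were alternatives, with other scalings and filters, other controls, counts summed per locus and libraries left out. The fit was tested on simulated data. Replicate pairs differed by more than sampling noise (chi-square per degree of freedom at least 8.48), so no library was counted as a duplicate.

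The genes, lists, tests and the alternative without empty-vector libraries 1 and 3 were chosen with earlier results of these data known. Named transcripts were the 6 genes, the 3 nearest patterns of each, and, of the listed loci, those called or the 2 most abundant. The other tested listed loci were named after their values were seen. Gene names of the 6 are published assignments for these IDs. No annotation, sequence or marker list was used here, so the leaf identity of the samples was not checked.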

Additional observations from a re-analysis of the deposited data

Results flagged for a closer look

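Over the 6 control libraries, empty-vector library 1 lay far from the others for 3 genes by Dixon's ratio of its gap to the whole range. F3'H read 191 CPM there, with a ratio of 0.728. LDOX read 1368 CPM, with a ratio of 0.788. MYB115 read 37.2 CPM, with a ratio of 0.780. These ratios exceed the 95% critical value for 6 samples, and that of F3H, 0.605, does not. For normally distributed values, chance passes this value in about 1 of 20 groups. Here CPM was used unlogged, over both control genotypes, and no ratio was computed on log2 CPM. On that scale the highest, next highest and lowest controls were 7.58, 5.96 and 3.82 for F3'H. They were 10.4, 8.23 and 3.88 for LDOX and 5.23, 3.10 and -1.22 for MYB115, so the gaps were a smaller part of the range. The flags thus depend on the scale. In all, 12 such checks were made (the highest and the lowest control of 6 genes), and the 3 values come from the same library and so are not independent.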

How the results depend on the processing

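No paired analysis was possible because the numbers in the library titles are unique to each library and are shared by no libraries across genotypes. With 3 libraries a genotype, wide spread in empty-vector and few counts for MYB115, small differences were not detectable. In knockout against controls and against intermediate, F3'5'H kept its direction and its call in all 24 and 22 alternatives. Of 507 log2 fold changes recomputed, 459 kept direction and side of the threshold, 7 lost the call, 11 gained it and 30 changed sign; the cause was not tested. Added after the data were seen were the fits without the filter that also lacked empty-vector libraries 1 and 3, and the deviations in 9 libraries.

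The members called in knockout against controls were 2 with all libraries, 1 without empty-vector libraries 1 and 3 (also without the filter), 1 with wild-type alone, and 1 to 3 with 1 library left out, MYB115 joining without empty-vector library 2 (edgeR adjusted p = 0.050). In knockout against intermediate 1 became 2 without those empty-vector libraries, filtered or not. In empty-vector against wild-type 0 became 2 by DESeq2 and 0 to 5 with 1 library left out. The 5 came from the fit that keeps only the high empty-vector libraries 1 and 3. For any difference 3 became 6 by DESeq2, 1 without the 2 empty-vector libraries, filtered or not, and 2 to 6 with 1 library left out. All tested transcripts called in empty-vector against wild-type (6) became 3 with upper-quartile scaling, 239 by DESeq2, 0 without the 2 libraries (filtered or not) or with only the groups compared, and 0 to 1302 with 1 library left out. In intermediate against controls 1 became 2 without the filter, 63 by DESeq2, 18 with empty-vector alone, 0 with wild-type alone, with only the groups compared or without the 2 libraries (filtered or not), and 0 to 3 with 1 left out. With 1 left out, knockout against intermediate ranged from 1566 to 3089 (2478 with all) and any difference from 1932 to 4871 (3184 with all). The 10 called pairs became 0 without the 2 libraries and by deviations in 12 or 9 libraries, and 1 to 10 with 1 left out, 1 without empty-vector library 1 and 2 without library 3.

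Changes of sign in log2 fold change follow as the value without empty-vector libraries 1 and 3, then the same without the filter. They were 0.87 and 0.91 for F3'H, 0.85 and 0.88 for LDOX and 0.63 and 0.66 for MYB134 in knockout against controls, with 0.71 for MYB115 in the fit without the filter. In intermediate against controls they were 0.030 and 0.083 for F3H, 0.49 and 0.54 for F3'H and 0.23 and 0.28 for MYB134. In empty-vector against wild-type they were -0.054 and -0.10 for F3H and -0.26 and -0.31 for F3'H, with -0.38 for MYB115 in the fit without the filter. With wild-type alone as the control, knockout values were 0.76 for F3'H, 1.39 for LDOX and 0.71 for MYB134, and intermediate values were 0.026 for F3H, 0.38 for F3'H, -0.028 for F3'5'H and 0.32 for MYB134. In knockout against controls MYB134 was 0.078 by limma-voom, 0.036 without empty-vector library 1 and 0.14 without wild-type library 3, and F3'H was 0.21 without empty-vector library 1; with 1 library left out they ran from -0.45 to 0.14 and from -0.69 to 0.21. F3'5'H in intermediate against controls was -0.20 without intermediate library 2, in a range up to 0.50. Of the correlations, r was -0.098 for F3H with LDOX and -0.11 for MYB134 with F3H without the 2 libraries, -0.27 for F3H with F3'5'H and 0.12 for MYB134 with F3'5'H by deviations, and 0.30 for F3'5'H with LDOX, 0.43 for MYB134 with F3'5'H and -0.062 for MYB134 with LDOX by deviations in 9 libraries.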

Other observations

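Over the 10 libraries without empty-vector libraries 1 and 3, an order looked at after the data were seen, Potri.005G113700.1 was again the nearest pattern to F3H (r = 0.962) and Potri.T124000.1 was among the 3 nearest to MYB134 (r = 0.950). None of the other 3 nearest transcripts of any of the 6 genes was shared between the orders. A transcript could leave the 3 nearest while its r stayed high. Those of F3'5'H over 12 libraries had r of 0.959, 0.951 and 0.964 over these 10, where the third nearest had 0.969. For MYB115 the same values were 0.40, 0.37 and 0.32. LDOX ranked 1504 of 10003 in likeness to F3'H over these 10 libraries, and MYB134 ranked 2014. In likeness to LDOX, the listed row Potri.003G176800.1 ranked 31 over 10 libraries and 1 over 12.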
